A study of Mus musculus with 15 samples.

Results

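Genomic imprinting is the silencing of a gene on the chromosome inherited from one parent, set by DNA methylation in the germ line. Many imprinted genes act on fetal and early postnatal growth, and a number of them are shut down across organs as the young animal stops growing fast. The genes followed here are Igf2, H19, Dlk1, Meg3, Plagl1, Peg3, Mest, Cdkn1c, Grb10 and Ndn. They were chosen by their symbol, with earlier results of these data known. All 10 were present among the 18536 genes of the deposited table and passed the filter on low values.

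Levels were measured by RNA sequencing of the auditory nerve, the bundle of spiral ganglion neurons, their axons and glia inside the cochlea. The 15 libraries came from mice at postnatal day (P) 3, 7, 14 and 21 and from adults, with 3 libraries at each age and both cochleae of a mouse joined in a library. The adult libraries were titled CTRL, while the titles of the other libraries gave the postnatal day. Comparisons with adults therefore also set libraries with that title against libraries without it. No genotype or treatment was labelled otherwise. The strain, the sex and the exact age of the adults were not given in the sources used here. Levels are normalized read counts, that is, read counts divided by 1 size factor for each library. Depth ran from 35250155 to 42258738 reads per library, and 3 reads corresponded to 2.53 to 3.65 normalized counts. A fold change is given on the log2(normalized count + 1) scale with its standard error (SE), and a gene "rose" or "fell" where limma's adjusted p over the 16723 genes tested was under 0.05. The parental allele that each read came from was not measured. In bulk tissue, fewer cells of a type and less RNA per cell cannot be told apart.

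These genes sit in clusters and have opposed roles. Igf2 encodes a growth factor that acts through the IGF1 and insulin receptors, and H19, its neighbour, is a non-coding RNA expressed from the maternal chromosome. Dlk1, a transmembrane protein with EGF repeats, is paired in the same way with the maternally expressed non-coding RNA Meg3. Plagl1 (Zac1) is a zinc finger transcription factor, Peg3 is another zinc finger protein and Ndn (necdin) is a MAGE family protein of postmitotic neurons. Mest encodes a protein of the hydrolase fold family, Cdkn1c (p57) is an inhibitor of cyclin-dependent kinases and Grb10 is an adaptor that restrains insulin and IGF receptor signalling.

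Over the whole span the group split. Of the 10 genes, 7 fell from P3 to adult (Igf2, H19, Dlk1, Plagl1, Mest, Cdkn1c and Grb10), 2 rose (Meg3 and Ndn) and Peg3 did not pass the test. The median log2 fold change of the 10 was -2.51, against -0.01 over all genes tested. Among all genes 68.7% were called in this comparison, with 34.3% lower and 34.4% higher, so a call by itself was common. Since the 10 genes were chosen with earlier results of these data known, their shares and median are a description and not a test. H19 had the lowest log2 fold change of the 10, -8.05, and stood at place 14 from the lowest of 16723 genes. All 10 differed between ages in the joint test, as did 85.4% of all genes.

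**Figure D1:**
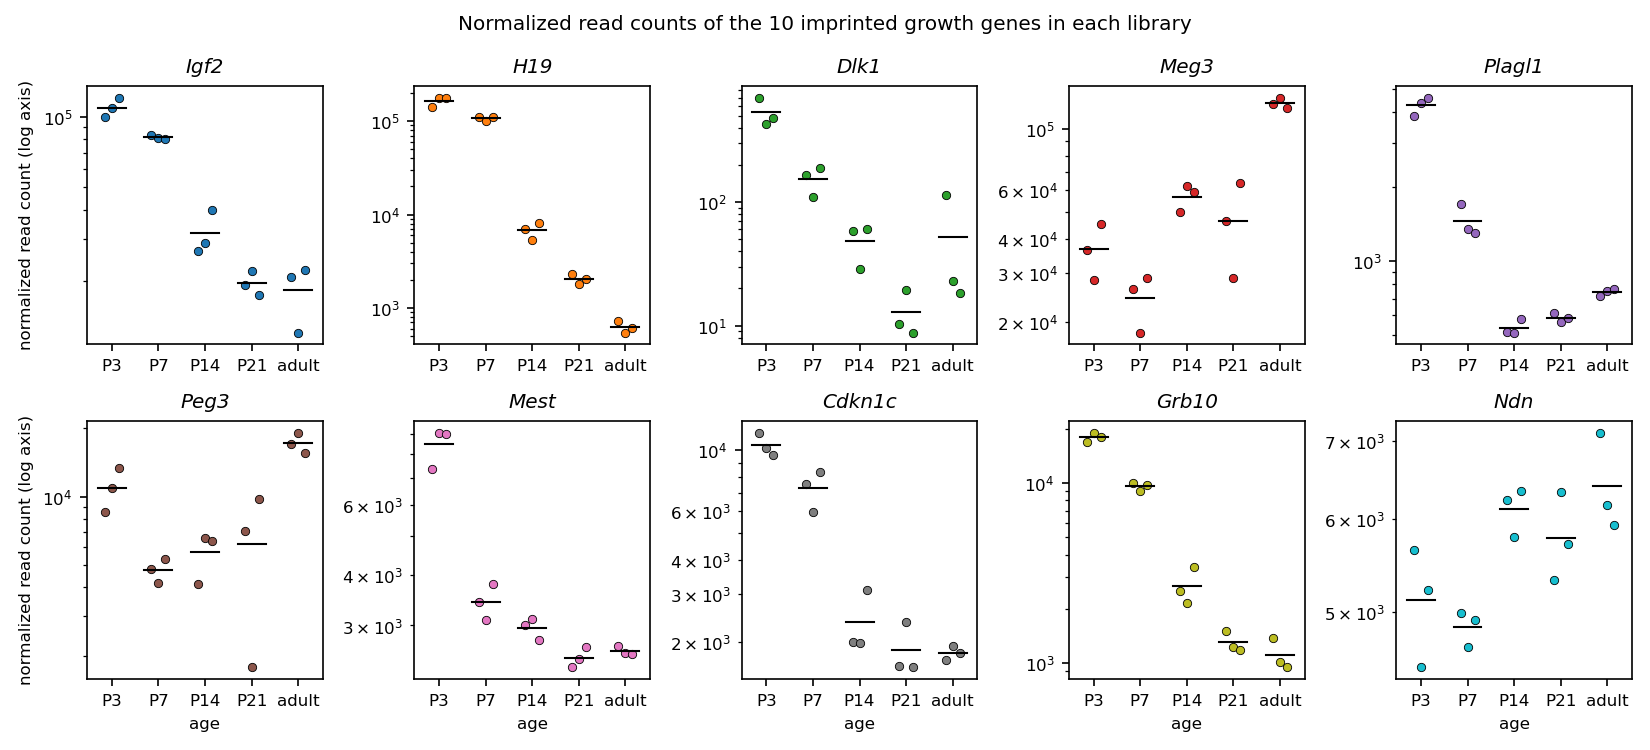
Normalized read count of each of the 10 genes in every library (log axis) by age, with 1 panel per gene, points for the 3 libraries of an age and a short bar at their mean. H19 goes from between 142752 and 178030 at P3 to between 545 and 720 in adults, while Meg3 and Ndn end above their P3 level.

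Calls of a fall were most frequent in the first 2 intervals. From P3 to P7, 6 of the 10 fell (H19, Dlk1, Plagl1, Mest, Cdkn1c and Grb10) and 0 rose, where 28.1% of all genes were called, 12.8% fell and 15.4% rose. From P7 to P14, across the onset of hearing, 6 fell (Igf2, H19, Dlk1, Plagl1, Cdkn1c and Grb10) and Meg3 and Ndn rose, where 48.1% of all genes were called, 23.8% fell and 24.3% rose. Mest was called in the first of these intervals and not in the second, and Igf2 the reverse, a difference that was not tested. Between P14 and P21 3 fell (Igf2, H19 and Grb10) and 0 rose, where 9.29% of all genes were called, 6.0% fell and 3.29% rose. By size, the log2 step from P14 to P21 was nevertheless larger than that from P3 to P7 for Igf2, H19, Dlk1 and Grb10, which was not tested. From P21 to adult the direction was different: H19 alone fell, and Dlk1, Meg3, Plagl1 and Peg3 rose, where 49.4% of all genes were called, 24.1% fell and 25.4% rose. The share of members called from P21 to adult, 5 of 10, was near that background. The medians of the 10 were -0.77, -1.40, -0.34 and 0.10 in the 4 intervals in order, against -0.02, -0.02, 0.00 and 0.00 over all genes.

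**Figure D2:**
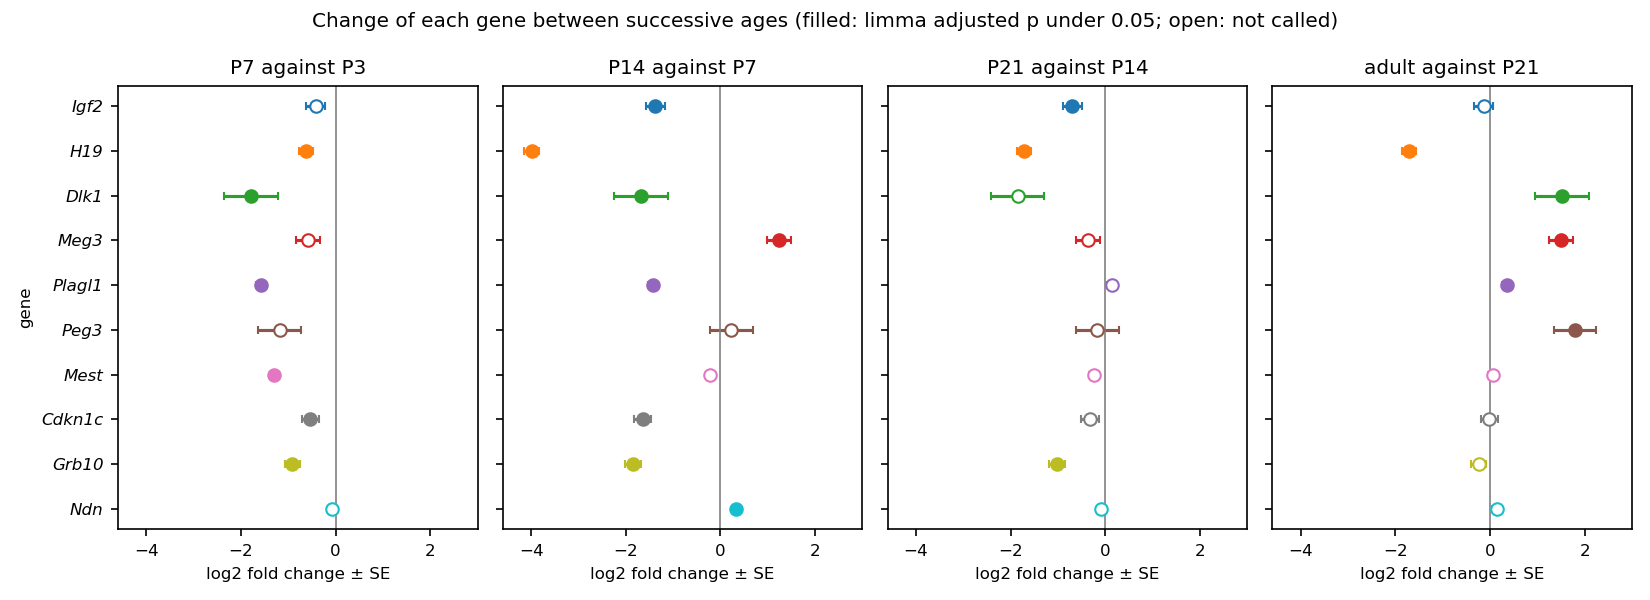
Log2 fold change of each of the 10 genes between successive ages, 1 panel per interval, with bars of 1 SE and filled points for limma adjusted p under 0.05. H19 is filled and below 0 in all 4 panels, and Meg3 is filled and above 0 from P7 to P14 and from P21 to adult.

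H19 lies on the minus strand of chromosome 7 (mm10, chr7:142575530-142578146), and Igf2 lies beside it on the same strand (chr7:142650768-142666816). Both host a microRNA on their own strand, and the mature sequences from RefSeq (GRCm38.p6) are shown because they are what these transcripts may be processed into, with the seed, bases 2 to 8, in capitals. The mature microRNAs themselves were not measured here.
miR-675-5p (H19): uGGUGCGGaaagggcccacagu
miR-675-3p (H19): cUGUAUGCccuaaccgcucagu
miR-483-5p (Igf2): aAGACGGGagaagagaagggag
miR-483-3p (Igf2): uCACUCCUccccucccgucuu

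H19 stood at 142752, 176408 and 178030 normalized counts at P3 and at 110832, 99439 and 109855 at P7. It then stood at 7047, 5293 and 8060 at P14, at 2310, 1803 and 2014 at P21, and at 720, 545 and 610 in adults. No 2 ages overlapped, and each was below the one before. The largest single step was from P7 to P14, with a log2 fold change of -3.99 (SE 0.15), a fall of 15.9-fold (limma adjusted p = 2.41e-09). The steps from P3 to P7 (-0.63, SE 0.15, adjusted p = 0.00869), from P14 to P21 (-1.72, adjusted p = 4.68e-05) and from P21 to adult (-1.71, adjusted p = 3.52e-05) also passed. From P3 to adult the fall was 265-fold. Ranked by normalized count per kilobase of exon among 18170 genes, H19 was between place 1 and 3 at P3 and between place 6782 and 8013 in adults.

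For Igf2 the first interval with a call was P7 to P14. Its level was 99397, 108370 and 120419 at P3, 83274, 81193 and 80656 at P7, and 26784, 29034 and 40049 at P14. It was 19125, 21951 and 17389 at P21 and 20752, 12036 and 22150 in adults. The P21 and adult values overlapped, and the adult mean was 16.7% of the P3 mean. From P7 to P14 the log2 fold change was -1.38 (SE 0.20, limma adjusted p = 9.2e-05), and from P3 to adult Igf2 fell by 2.62 (6.17-fold). From P3 to P7 the log2 difference was -0.42 (95% interval -0.85 to 0.02), which did not pass (adjusted p = 0.140) in the fit of all libraries and passed without adult replicate 2 (adjusted p = 0.0419; 0.00744 to 0.323 over the alternatives). The call from P14 to P21 (-0.70, adjusted p = 0.0466) was the least firm for Igf2. It was lost without any 1 of the P3 or P7 libraries, P14 replicate 2 or 3, or P21 replicate 1 or 3, with adjusted p between 0.0544 and 0.195.

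The neighbours therefore parted. The log2 level of H19 minus that of Igf2 averaged 0.60 at P3, 0.38 at P7, -2.23 at P14, -3.25 at P21 and -4.83 in adults. This difference did not overlap between P7 and P14 or between P3 and adult, and the exact two-sided permutation p was 0.10 for each, the smallest that 3 against 3 libraries can give (4 such tests). Over the 15 libraries the log2 levels of the pair had a Pearson correlation of 0.97, a description of values that share 5 ages. The antisense transcript Igf2os overlaps Igf2 on the other strand. Since the use of strand in counting was not given in the sources used here, its reads cannot be told apart from those of Igf2. Igf2os stood between 297 and 345 normalized counts at P3, and its log2 fold change from P3 to adult was -1.46 (adjusted p = 0.000110).

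**Figure D3:**
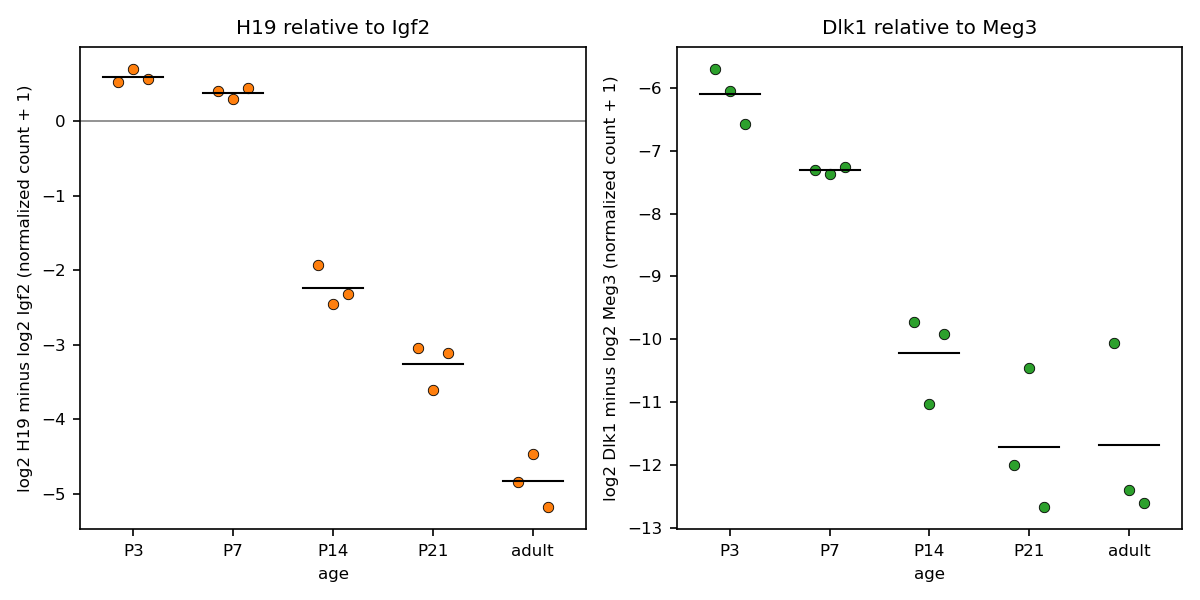
Log2 level of H19 minus Igf2 and of Dlk1 minus Meg3 in every library by age, with a short bar at the mean of 3 libraries. The first goes from a mean of 0.60 at P3 to -4.83 in adults, and the second from -6.11 to -11.69.

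Dlk1 and Meg3 are neighbours on the plus strand of chromosome 12 (chr12:109452823-109463336 and chr12:109540996-109571729). Meg3 opens a long stretch of maternally expressed non-coding RNAs that goes on through Rian and Mirg. The 250 bases before an annotated start of Meg3 are shown because Meg3 became the most abundant of the 10 genes per length in adults. CG dinucleotides, the sites of mammalian DNA methylation, are in capitals (RefSeq, GRCm38.p6, chr12:109540746-109540995, plus strand). The mature microRNAs inside the gene follow, with their seeds in capitals.
Meg3 upstream: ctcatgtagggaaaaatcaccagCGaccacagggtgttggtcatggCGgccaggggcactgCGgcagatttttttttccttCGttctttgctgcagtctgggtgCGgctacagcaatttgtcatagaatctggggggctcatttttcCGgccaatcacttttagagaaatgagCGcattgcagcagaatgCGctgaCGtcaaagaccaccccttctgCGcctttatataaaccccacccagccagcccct
miR-770-5p (Meg3): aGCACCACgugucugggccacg
miR-770-3p (Meg3): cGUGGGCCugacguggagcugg
miR-1906 (Meg3): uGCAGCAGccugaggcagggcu

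Meg3 stood at 36344, 28330 and 45438 normalized counts at P3 and at 26318, 18341 and 28871 at P7. It stood at 49851, 61843 and 58944 at P14, at 46219, 28812 and 63772 at P21, and at 123047, 129410 and 119296 in adults. The adult values lay above all others, and the P14 values lay above those of P3 and P7. Meg3 rose by 1.23 (SE 0.25) on the log2 scale from P7 to P14 (limma adjusted p = 0.00122) and by 1.49 from P21 to adult (adjusted p = 0.000634), and the adult mean was 338% of the P3 mean. From P3 to P7 its log2 difference was -0.58 (95% interval -1.13 to -0.04). That step did not pass (adjusted p = 0.101), and it passed without P21 replicate 2 (adjusted p = 0.0308; over the alternatives it ran from 0.0308 to 0.333). The cluster's other long RNAs did not follow Meg3 at every age. Rian averaged 7685 at P3, 19251 at P21 and 15493 in adults, and rose from P3 to adult by 1.02. Mirg rose by 1.74 and Rtl1, the paternally expressed retrotransposon-derived gene of the cluster, by 0.62. In P21 replicate 2, where Meg3 was lowest of the 3 libraries at that age, Rian (22803) and Mirg (1131) were highest.

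Dlk1 was the least abundant of the 10 genes per length at every age. Its normalized counts were 698, 428 and 477 at P3, 165, 109 and 188 at P7, and 57.9, 28.6 and 60.1 at P14. They were 10.3, 19.5 and 8.81 at P21 and 114, 22.97 and 18.2 in adults. The first 4 ages did not overlap with one another, and adult replicate 1 stood well above its group. From P3 to adult Dlk1 fell by 3.80 (SE 0.56, 13.9-fold, limma adjusted p = 4.34e-05), and the log2 fold change was -4.61 without adult replicate 1. The steps between neighbouring ages were less firm. The fall from P3 to P7 (-1.79, adjusted p = 0.0314) was lost without any 1 of the P3 or P7 libraries, with adjusted p between 0.0504 and 0.112. The fall from P7 to P14 (-1.68, adjusted p = 0.0257) was lost without P7 replicate 4, P7 replicate 6 or P14 replicate 2 (0.0700, 0.0795 and 0.106). No step of Dlk1 between neighbouring ages kept its side of the threshold in every fit without 1 library. From P14 to P21 the log2 difference of -1.85 did not pass (adjusted p = 0.0580), and it passed without P21 replicate 2, adult replicate 1 or adult replicate 3 (0.0416, 0.00938 and 0.0492). Dlk1 rose from P21 to adult by 1.52 (adjusted p = 0.0396), but only by 0.71 without adult replicate 1, where the call was lost (adjusted p = 0.174). It was also lost without P21 replicate 1, P21 replicate 3 or P7 replicate 4 (0.0925, 0.107 and 0.0510).

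Plagl1 and Grb10 fell from P3 to P7, as did H19, Dlk1, Mest and Cdkn1c. The 250 bases before an annotated start are shown for Plagl1 and Grb10, with CG dinucleotides in capitals. RefSeq (GRCm38.p6) gave 15 windows for 8 of the 10 genes, each from 250 bases before to 50 after a start. The Plagl1 stretch is chr10:13090582-13090831 on the plus strand and the Grb10 stretch is chr11:12037421-12037670 on the minus strand.
Plagl1 upstream: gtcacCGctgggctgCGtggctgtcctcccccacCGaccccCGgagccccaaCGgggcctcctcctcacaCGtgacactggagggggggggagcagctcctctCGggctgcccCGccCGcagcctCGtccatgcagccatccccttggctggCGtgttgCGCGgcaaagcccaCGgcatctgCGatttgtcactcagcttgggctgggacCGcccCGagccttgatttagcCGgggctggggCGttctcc
Grb10 upstream: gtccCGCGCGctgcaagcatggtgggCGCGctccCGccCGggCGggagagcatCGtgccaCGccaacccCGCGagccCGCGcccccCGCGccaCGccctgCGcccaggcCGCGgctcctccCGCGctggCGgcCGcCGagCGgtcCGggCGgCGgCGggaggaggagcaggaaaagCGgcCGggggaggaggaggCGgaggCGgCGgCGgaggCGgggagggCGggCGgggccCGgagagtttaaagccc

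The whole windows of 300 bases held 26 CG for Plagl1 and 45 for this start of Grb10, against a median of 7 over 32851 windows of the same length. Of all windows, 1.9% held at least as many CG as this Grb10 window and 16.9% at least as many as the Plagl1 window. The Igf2 windows held 24, 14, 7 and 2 CG, and 20% of all windows held at least 24. Another start of Grb10 had a window with 9 CG, and another start of Meg3 had one with 1 CG. The motif GGGCGG, a core of GC boxes, was searched on both strands and matched 5 times in this Grb10 window and 2 times in the Plagl1 window (35.7% of all windows hold it). The motif TATAAA, searched in the same way, matched 2 times in the Meg3 window shown above, once on each strand and overlapping (13.6% of all windows hold it). These matches describe the letters only.

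Plagl1 (chr10:13090788-13131695) stood at 3858, 4375 and 4592 normalized counts at P3, at 1696, 1341 and 1301 at P7, and at 512, 510 and 578 at P14. It stood at 612, 560 and 583 at P21 and at 715, 749 and 769 in adults. The lowest mean was at P14, where the values overlapped those of P21, and the adult libraries lay above those of P14 and P21. Plagl1 fell by 1.57 (SE 0.10) from P3 to P7 and fell by 1.43 from P7 to P14 (limma adjusted p = 1.62e-06 and 1.89e-07). It then rose by 0.35 from P21 to adult (adjusted p = 0.0137), and the adult mean was 17.4% of the P3 mean.

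Grb10 (chr11:11930499-12037420) had levels of 16921, 19023 and 18026 at P3, 9985, 9018 and 9683 at P7, and 2528, 2152 and 3395 at P14. The levels were 1516, 1224 and 1183 at P21 and 1385, 1014 and 948 in adults. Every age lay below the one before without overlap except P21 and adult, which overlapped. Grb10 fell from P3 to P7 (-0.91, SE 0.16), from P7 to P14 (-1.85) and from P14 to P21 (-1.02) (limma adjusted p = 0.00150, 1.18e-06 and 0.00265). The last of these calls was lost with only both ages in the fit (adjusted p = 0.0728). Over the whole span Grb10 fell 16.3-fold.

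Cdkn1c (chr7:143458339-143461050) was at 11603, 10229 and 9580 normalized counts at P3 and at 7561, 5974 and 8321 at P7. It was between 1992 and 3093 at P14, between 1622 and 2379 at P21 and between 1729 and 1945 in adults. The last 3 ages overlapped, and the fall lay mostly between P7 and P14 (-1.64, SE 0.18, limma adjusted p = 9.65e-06). Over the whole span Cdkn1c fell by 2.51 (5.69-fold). Its earlier fall, from P3 to P7 (-0.53, adjusted p = 0.0469), was lost without any 1 of the P3 libraries, P7 replicate 4 or 5, or any 1 of the adult libraries, with adjusted p between 0.0560 and 0.182, and with edgeR on the recovered reads (0.0546).

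Mest (chr6:30733506-30748466) had its largest step from P3 to P7. Its normalized counts were 7373, 9062 and 9005 at P3, between 3099 and 3797 at P7, between 2756 and 3112 at P14, between 2360 and 2656 at P21 and between 2547 and 2662 in adults. P3 stood apart from every later age. Mest fell by 1.30 (SE 0.09) from P3 to P7 (limma adjusted p = 1.93e-06), and the adult mean was 30.5% of the P3 mean. From P7 to P14 the log2 difference was -0.21 (95% interval -0.42 to -0.01), which did not pass (adjusted p = 0.0741) and passed without P3 replicate 1 or P7 replicate 5 (0.0409 and 0.0340; 0.0172 to 0.273 over the alternatives). Mest hosts miR-335, shown with its seeds in capitals, and its end overlaps Copg2 on the other strand, whose reads cannot be told apart there.
miR-335-5p (Mest): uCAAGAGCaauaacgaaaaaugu
miR-335-3p (Mest): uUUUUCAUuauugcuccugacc

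The 9 mature microRNAs inside the 4 host genes had 9 different seeds, so none of them shared a seed with another. Copg2 rose by 0.56 from P3 to adult, opposite to Mest.

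Peg3 and Ndn, known for their expression in neurons, did not fall from P3 to adult. Peg3 lies on the minus strand of chromosome 7 (chr7:6705960-6730419), and the 250 bases before its start (chr7:6730420-6730669) are shown as those of a gene whose adult level was above its level at the other ages, with CG in capitals.
Peg3 upstream: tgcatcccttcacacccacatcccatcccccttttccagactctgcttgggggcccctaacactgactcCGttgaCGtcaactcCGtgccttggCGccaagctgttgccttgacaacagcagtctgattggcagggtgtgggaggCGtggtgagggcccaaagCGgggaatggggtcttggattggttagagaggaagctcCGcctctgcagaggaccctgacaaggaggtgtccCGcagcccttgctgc

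Peg3 stood at 8554, 10960 and 13426 normalized counts at P3, at 4835, 4159 and 5328 at P7, and at 4141, 6570 and 6402 at P14. It stood at 7051, 1779 and 9750 at P21 and at 17043, 19181 and 15596 in adults. All adult values lay above all others, and P21 replicate 2 was the lowest of the 15 libraries. Peg3 rose from P21 to adult by 1.79 (SE 0.45, limma adjusted p = 0.00611), and by 1.05 without P21 replicate 2 (adjusted p = 0.00327). The call was lost with only P21 and adult in the fit (adjusted p = 0.0530). From P3 to adult the log2 difference was 0.67 (95% interval -0.30 to 1.65) and did not pass (adjusted p = 0.201). It passed without P21 replicate 2 (adjusted p = 0.00874), a library of neither age that enters the shared estimate of the spread, and the alternatives ran from 0.00335 to 0.583. The log2 difference from P3 to P7, -1.18, likewise missed the threshold (adjusted p = 0.0670) and passed without P21 replicate 2 or P21 replicate 3 (0.000816 and 0.0339; 0.000668 to 0.190 over the alternatives). From P14 to P21 the log2 difference was -0.17, and 0.57 without P21 replicate 2. Its neighbour Usp29, which shares its start region, rose from P3 to adult by 1.14, while Zim1, a maternally expressed zinc finger gene of the same cluster, fell by 3.05.

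Ndn (chr7:62348277-62349927) stayed between 94.9% and 125% of its P3 mean at every later age. Its normalized counts lay between 4486 and 5653 at P3, 4667 and 4988 at P7, 5794 and 6338 at P14, 5320 and 6325 at P21, and 5932 and 7112 in adults. The P14 libraries lay above those of P3 and P7, and the adult range overlapped those of P14 and P21. Ndn rose by 0.33 (SE 0.10) from P7 to P14 (limma adjusted p = 0.0110) and by 0.33 from P3 to adult (adjusted p = 0.00797), and under quantile normalization both calls were lost (0.02 for adult against P3, adjusted p = 0.865, and 0.26 for P14 against P7, adjusted p = 0.0544). Magel2, the related MAGE gene beside it, had normalized counts of 130, 98.7 and 169 at P3, and of 20.8, 0 and 1.22 in adults. At P21 its replicates 1 and 3 were at 0 and replicate 2 at 1.03, so from P14 on the libraries were under the floor of 3 reads except adult replicate 1 and P14 replicate 3 (27.9).

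Compared per length, the order of the 10 genes turned over. In normalized counts per kilobase of exon, the P3 means ran from H19 (67370) through Igf2 (19115), Cdkn1c (5135), Mest (2150), Meg3 (2029), Grb10 (1979), Ndn (1386), Peg3 (824) and Plagl1 (547) to Dlk1 (94.5). At P3 the ranges of Mest and Meg3, and of Meg3 and Grb10, overlapped, and the other neighbours in that order did not. In adults the order was Meg3 (6850), Igf2 (3200), Ndn (1734), Peg3 (1296), Cdkn1c (900), Mest (656), H19 (254), Grb10 (123), Plagl1 (95.2) and Dlk1 (9.17), and no neighbours overlapped. Igf2 was second in this order in adults, after a fall of 6.17-fold, and ranked between place 326 and 753 of 18170 genes per length. These orders depend on the exon lengths used. For Ndn the exons span 3694 bases, longer than the stretch given in the deposited table (chr7:62348277-62349927), so its level per length may be too low. Whether Igf2 or Ndn stood higher in adults is therefore not settled. The annotated spans of Plagl1, Mest, Peg3 and Grb10 also reach beyond those of the deposited table.

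**Figure D4:**
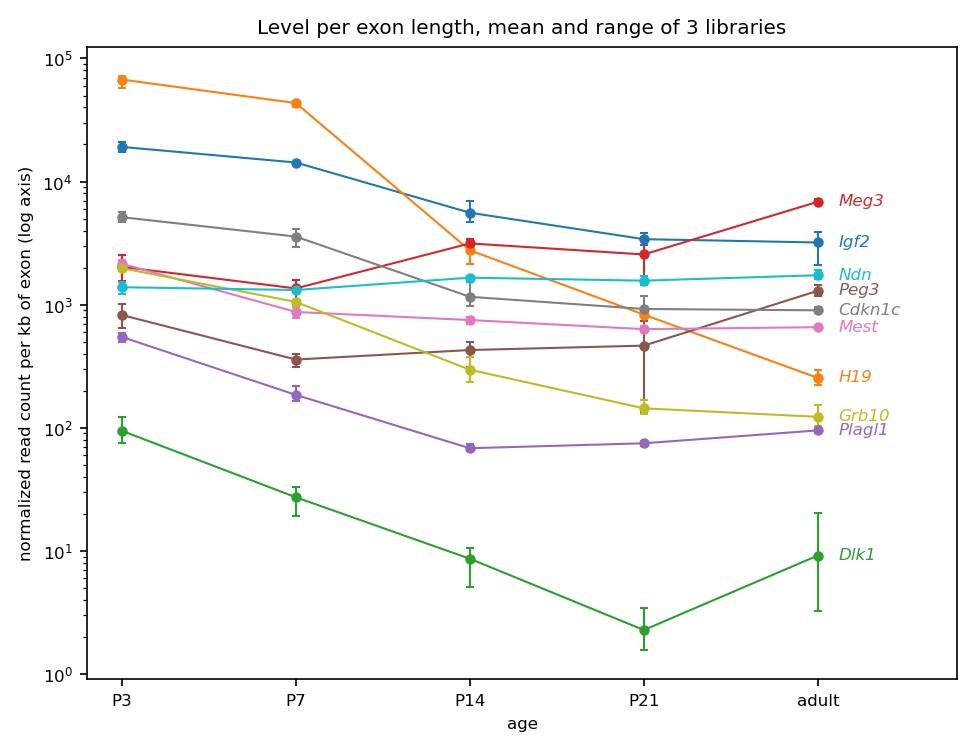
Normalized read count per kilobase of exon of the 10 genes at each age (log axis), with the mean and the range over 3 libraries. H19 is first at P3 (67370) and seventh in adults (254), and Meg3 is first in adults (6850). The exon length used for Ndn is longer than its span in the deposited table, so its level may be too low.

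Other genes of the insulin-like growth factor pathway were also followed. Of 24 listed, 22 were tested, and 9 rose and 9 fell from P3 to adult, with a median of 0.06. These shares lie near those of all genes, of which 34.4% rose and 34.3% fell. Igf1, the paralogous growth factor, fell by 3.76 (limma adjusted p = 8.68e-11). The type 1 receptor Igf1r rose by 0.53 and the insulin receptor Insr by 0.81, while Igf2r, the receptor that clears Igf2 and is itself imprinted, fell by 1.12. Among the binding proteins Igfbp2, Igfbp3 and Igfbp4 fell (log2 fold changes of -1.37, -2.02 and -1.97), and Igfbp6, which prefers Igf2, rose by 4.18 (limma adjusted p = 1.88e-11). The docking protein Irs1 fell by 0.80.

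Imprinted genes outside the 10 were followed in the same way. Of 60 other imprinted genes listed, 53 were tested, and 21 rose and 20 fell from P3 to adult, with a median of -0.05, again near the 34.4% and 34.3% of all genes. Snrpn and Snurf, which share a transcript near Ndn, rose by 2.39 and 2.22, Peg13 by 2.48, Zrsr1 by 1.77, Nnat by 1.74 and Slc22a2 by 4.63. Slc38a4, an amino acid transporter, fell by 3.00, as did Peg12 (-3.43) and Peg10 (-0.96). Kcnq1ot1, the non-coding RNA of the Cdkn1c cluster, did not pass (-0.12, adjusted p = 0.346), nor did Dio3 beyond Meg3 (0.73, adjusted p = 0.236). Both stood apart from these end points at P14. Kcnq1ot1 had normalized counts of 1185, 1186 and 1284 at P3, 569, 699 and 576 at P14, and 1154, 1100 and 1114 in adults. Dio3 had 4.21, 4.75 and 0.942 at P3, 69.3, 37.8 and 42.9 at P14, and 4.16, 3.28 and 10.9 in adults.

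For Cdkn1c, 15 other genes of the G1 machinery were tested, namely kinase inhibitors, cyclins, kinases, Rb1 and E2f1. From P3 to adult 12 fell and 2 rose, with a median of -1.35, where 34.3% of all genes fell and 34.4% rose. The genes that fell included Cdk4 (-2.10), Ccnd1 (-2.89), Cdk2 (-1.84), Cdk6 (-2.37), Ccnd2 (-2.04) and Ccnd3 (-1.10). The inhibitors went both ways. Cdkn1b and Cdkn2d rose by 0.77 and 0.57, while Cdkn1a (-0.80), Cdkn2b (-0.91) and Cdkn2c (-2.63) fell, as did the transcription factor E2f1 (-3.16). Rb1, the target of these kinases, did not pass (0.06, limma adjusted p = 0.441). Cdkn1a, Cdkn2b, Cdkn2c, E2f1 and Rb1 are named after their values were seen. For Dlk1, an atypical Notch ligand, 18 genes of the Notch pathway were tested, and 10 fell and 4 rose from P3 to adult, where 68.7% of all genes were called. Jag1, a Notch ligand, fell by 1.56, as did the Notch targets Nrarp (-1.20), Hes1 (-0.96), Heyl (-0.93) and Hey1 (-0.92), while Dner rose by 1.71 and Hey2 by 0.77.

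Of 8 genes that maintain imprints or DNA methylation, 5 fell and 1 rose from P3 to adult. With both directions counted this share lies near the 68.7% of all genes, of which 34.3% fell and 34.4% rose. Zfp57, a zinc finger protein that protects imprints, fell by 2.81, and Uhrf1, which brings the maintenance methyltransferase to replicated DNA, fell by 5.06. Hells (-1.61), Trim28 (-0.78) and Smchd1 (-0.37) also fell, and Zfp445 rose by 0.21. Dnmt1, the maintenance methyltransferase itself, and Ctcf were not called. Dnmt1 had normalized counts of 3037, 3122 and 3486 at P3 and of 3137, 3328 and 3420 in adults. Of 7 relatives of Plagl1 and Ndn tested, 4 fell (Maged2 -1.83, Mageh1 -0.54, Plagl2 -0.50 and Maged1 -0.26) and Magee1 rose by 1.97. The share called was again near the 68.7% of all genes.

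The genes most like each of the 10 over the 15 libraries were found by the Pearson correlation of log2 levels among 13194 genes, as a description. Igf2 was most like Cmtm3 (0.989), Zdhhc15 (0.988), Golm1 (0.985), Cd248 (0.984) and Fscn1 (0.984). H19 was most like Surf4 and Txndc5 (0.996 each), and Grb10 most like Ckap4 and Fstl1 (0.995 each). The mean level of Surf4, however, went only from 13735 at P3 to 4973 in adults, so the likeness is of shape and not of size. Plagl1 was most like Igf2bp3 (0.986) and Gbp10 (0.985), Mest most like Iigp1 (0.979) and Gbp4 (0.977), and Cdkn1c most like Dcstamp (0.989) and Ddx39b (0.987). Each of these partners was lower in adults than at P3 by its mean. Dlk1 was most like Sprn (0.966) and Fxyd7 (0.962). Meg3 was most like Ppfia4 (0.981) and the non-coding RNA Miat (0.980), and Peg3 most like Zc3h13 (0.988) and Cep250 (0.985). Like Meg3 and Peg3, these partners were lowest of P21 in replicate 2, which enters the correlations. Ndn was most like Nsg1 (0.951) and the glutamate transporter Slc17a6 (0.938). Among the 10 themselves, Igf2 and Grb10 had a correlation of 0.98 and Peg3 and Meg3 one of 0.71.

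The make-up of the dissected tissue moved with age at the same time. All 10 markers of cycling cells fell from P3 to adult, and their summed level went from between 16407 and 17948 to between 1903 and 2033. Of 10 fibroblast markers 9 fell and 1 rose, and their sum went from between 539897 and 830666 to between 55945 and 64802. Of 10 neuron markers 9 rose and 0 fell, and their sum went from between 56897 and 93484 to between 428154 and 457423. Cell division and connective tissue markers thus went down as neuron markers went up. Of 10 Schwann cell markers 7 rose, of 8 oligodendrocyte markers 4 rose, of 8 osteoblast markers 7 fell and 1 rose, of 8 cartilage markers 5 fell and 1 rose, and of 8 macrophage markers 8 fell. Of 7 erythroid markers 6 fell, of 8 endothelial markers 4 fell and 1 rose, and of 8 cochlear epithelium markers 6 fell and 1 rose. Among all genes 34.4% rose and 34.3% fell from P3 to adult, 68.7% called in all. The shares called of the Schwann cell, cartilage and endothelial markers lie near that with both directions counted, though the Schwann cell calls were all rises. From P7 to P14 all 10 cycling cell and 7 of 8 cochlear epithelium markers fell, and 9 of 10 neuron markers rose. Among all genes 23.8% fell and 24.3% rose. The epithelium sum went from between 170127 and 272096 to between 22577 and 28383. The Schwann cell sum was highest at P14, between 817158 and 983943, and stood between 339026 and 369211 in adults. The neuron and Schwann cell markers that define the labelled tissue were present at every age, and no marker was at 0 in all libraries of an age. From P3 to adult the fall of H19, Igf2 and Grb10 and the rise of Meg3 thus ran beside these lists, but not in every interval. From P14 to P21 H19, Igf2 and Grb10 fell, as did 5 of 10 fibroblast markers. In that interval 0 of 10 cycling cell and 0 of 10 neuron markers were called (9.29% of all genes). From P21 to adult 9 cycling cell and 7 fibroblast markers fell (24.1% of all genes), while Igf2 and Grb10 were not called. The part of the lists in these results was not tested. In P21 replicate 2, where Peg3 and Meg3 were lowest of their age, the neuron sum was 290831, against 304593 and 355183 in the others. Genes outside the 10 were low in that library too. Foxo3 was at 211, against 971 and 1090 in the others, and Irs2 at 396, against 1282 and 1357. Rian and Mirg, in contrast, were highest there. The part of the neuron markers, or of the library as a whole, in those low values was not tested.

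**Figure D5:**
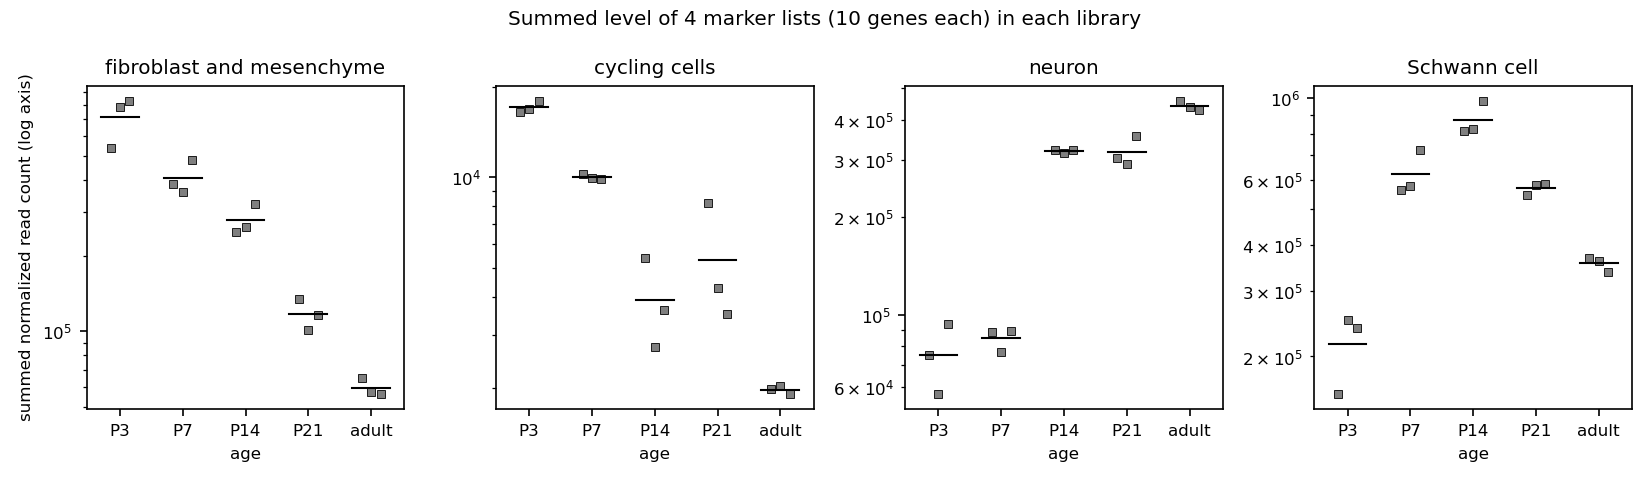
Summed normalized read count of 4 marker lists of 10 genes (fibroblast, cycling cell, neuron and Schwann cell) in every library by age (log axis), with a short bar at the mean of 3 libraries. The fibroblast and cycling cell sums are lowest in adults and the neuron sum is highest there (between 428154 and 457423).

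The Y-linked gene Eif2s3y was under 100 normalized counts in 4 libraries, adult replicate 3, P21 replicate 1, P21 replicate 2 and P14 replicate 1. The same 4 held Xist, a transcript of the inactive X chromosome, at 24201 to 44422, and the other libraries at 1107 or less. None of the 4 was at P3 or P7 and P21 held a pair of them, so this difference moves with age. Without them, 3 of the 10 genes were called from P21 to adult. The calls of Dlk1 (2.42, adjusted p = 0.0574) and Plagl1 (0.33, adjusted p = 0.180) were lost, with P21 left as 1 library that is assumed to vary like the other ages. Peg3 then rose by 0.89 from P21 to adult and by 0.74 from P3 to adult (limma adjusted p = 0.0241 and 0.00335).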

How the data were processed

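The measurement was RNA sequencing of 15 auditory nerve libraries. Per the labels' protocols, the nerve was microdissected, RNA was purified with the miRNeasy kit, degraded samples were left out and TruSeq libraries were made. Per the submitters' processing notes, Partek, TopHat2 and DESeq2 were used with build mm10. The annotation, counting and use of strand were not given in the sources used here. The deposited signal is the authors' normalized read count, that is, reads of a gene over the size factor of the library. All positive values under 5000 reads (100%) came out as whole reads (tolerance 0.1) once divided by the value of a single read, so whole reads could be recovered (35250155 to 42258738 per library). A floor of 3 reads covers counting error only.

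Limma 3.58.1 (R 4.3.3; trend, robust) was fitted to log2(normalized count + 1) in 1 fit of 15 libraries for genes at 10 or more in at least 3 libraries (16723 of 18536), leaving 10 residual degrees of freedom, without covariates. Tests were two-sided, with Benjamini-Hochberg adjustment over all genes tested and a threshold of 0.05, for 5 comparisons and for the 5 ages jointly. The pseudocount makes fold changes of low genes, Dlk1 above all, too small. Each library is 1 mouse. Levels per length used the union of exons in GENCODE M21, which for Ndn is longer than its span in the deposited table. Table coordinates span whole genes.

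All 10 genes are named, with up to 6 called genes per pathway list by smallest adjusted p, up to 2 against the majority, neighbours in the clusters, and the 5 (Igf2) or 2 genes most alike. Igf1r, Igf2r, Nnat, Peg10, Dnmt1, Ctcf, Foxo3 and Irs2 were named outside this rule, as were the G1 genes marked above. The genes and lists were chosen with earlier results of these data known. Alternatives were quantile and TMM scaling, other filters and pseudocounts, only both ages in the fit, edgeR 4.0.16 and DESeq2 1.42.0 on recovered reads, each library left out, the replicate number as a block, and the libraries low in Eif2s3y left out. On recovered reads edgeR called 4741, 7994, 1582, 8213 and 11445 genes in the 5 comparisons, against 4703, 8048, 1553, 8266 and 11495 by limma. The code was tested on simulated data.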

Additional observations from a re-analysis of the deposited data

How the results depend on the processing

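Over 1280 recomputed values of the 50 comparisons of single genes (10 genes in 5 comparisons), 46 lost their call and 24 gained one. Direction reversed in 0 of those called in the main or the alternative fit. Differences called in neither could change sign. Examples are Peg3 from P14 to P21 (-0.17, up to 0.59) and Igf2 from P21 to adult (-0.13, up to 0.14). The count of members called was within 1.5 times of the reported one except in 3 cases. With only both ages in the fit, 1 gene was called from P14 to P21 (the calls of Igf2 and Grb10 were lost) and 3 from P21 to adult (Dlk1 and Peg3 were lost). Without the libraries low in Eif2s3y, 3 were called from P21 to adult. Only both ages in the fit leaves fewer residual degrees of freedom; the cause was not tested further. Leaving out 1 library at a time gave 4 to 8 calls from P3 to P7, 7 to 9 from P7 to P14, 2 to 4 from P14 to P21, 4 to 5 from P21 to adult, 9 to 10 from P3 to adult and 10 jointly. The replicate number did not pair the libraries (5 of 18 same-numbered pairs correlated over 0.1, with a median of 0.0338). With the replicate number as a block, over the ages that share numbers, 2 genes were called from P14 to P21 (Igf2 lost, limma adjusted p = 0.108), 4 from P21 to adult (Dlk1 lost, adjusted p = 0.0556) and 9 from P3 to adult. Scalings moved the median of all genes by at most 0.02 (log2), but single members moved more. Under quantile normalization Ndn went from 0.33 to 0.02 in adult against P3, and its call was lost. Igf2 went from -0.42 to -0.70 in P7 against P3, and a call was gained. With 3 mice an age and Dlk1 at 8.81 to 19.5 normalized counts at P21, small steps of Dlk1 were not measured precisely.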
